A study of Mus musculus with 20 samples.

Results

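A set of 10 genes that mark alternatively activated macrophages was followed across the 5 treatment groups: Mrc1, Clec10a, Mgl2, Egr2, Chil3, Retnla, Ccl24, Ccl17, Il4ra and Cd163. They were taken by gene name, and each of the 10 matched 1 of the 78409 genes listed, of which 34373 had a count in any library. The data came from 20 RNA libraries of mouse bone marrow-derived macrophages (BMDMs), 4 per group, read from the 3′ end of polyadenylated RNA and counted by unique molecular identifier. The BMDMs of every group were wild type, grown from marrow of female C57BL/6J mice with L929-conditioned medium, and treated on day 7 of culture in serum-free medium. The PBS group received vehicle. The other groups received a fraction of bronchoalveolar lavage fluid (BALF) from mice with ovalbumin (OVA)-induced airway inflammation, and these donors, not the macrophages, were RNY1+/+ or RNY1-/-. EVFx is the fraction enriched for extracellular vesicles, added at 35000000 particles per µL. ProteinFx is the fraction enriched for protein, added at 0.75 µg of protein per µL. The study used mice of 7 to 16 weeks, with RNY1-/- donors from 1 commercial knockout line. Its methods give wild-type C57BL/6J for the mice other than the knockouts. They do not say whether RNY1+/+ donors were littermates of the knockouts, so donor genotype and mouse line cannot be told apart. Because vesicles and protein were dosed in different units, a difference between the fractions cannot be told apart from a difference in dose. Whether replicates were separate cultures or lavage pools is not given in the labels, so p-values measure the spread between these libraries, which may be technical.

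Macrophages are called alternatively activated when interleukin (IL)-4 or IL-13 engages a receptor that contains Il4ra, and the kinase-activated transcription factor STAT6 then turns on a set of genes. The set holds scavenging lectin receptors, the chitinase-like and resistin-like secreted proteins and chemokines that draw eosinophils and T helper 2 cells. It is known from allergic airways and helminth infection. Some of its genes also depend on colony-stimulating factor, IL-10 or glucocorticoid, and Cd163 is more a marker of the latter signals than of IL-4.

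Of the 10 genes, 6 were high enough to be tested in at least 1 comparison and 4 were too low to measure in most libraries (Mgl2, Retnla, Ccl17 and Cd163). The 6 did not move as a block. Mrc1, Clec10a and Egr2 fell against PBS with EVFx of either donor genotype, while Chil3, Ccl24 and Il4ra rose with ProteinFx of either donor genotype. Clec10a was the 1 tested gene called between donor genotypes, being 2.83-fold higher with RNY1-/- than with RNY1+/+ ProteinFx. Levels below are CPM, counts scaled to the library total. Fold changes came from edgeR's quasi-likelihood test after TMM scaling, with Benjamini-Hochberg adjustment over all genes tested, and a gene was called changed at an adjusted p under 0.05 with an absolute log2 fold change above 1.

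**Figure D1:**
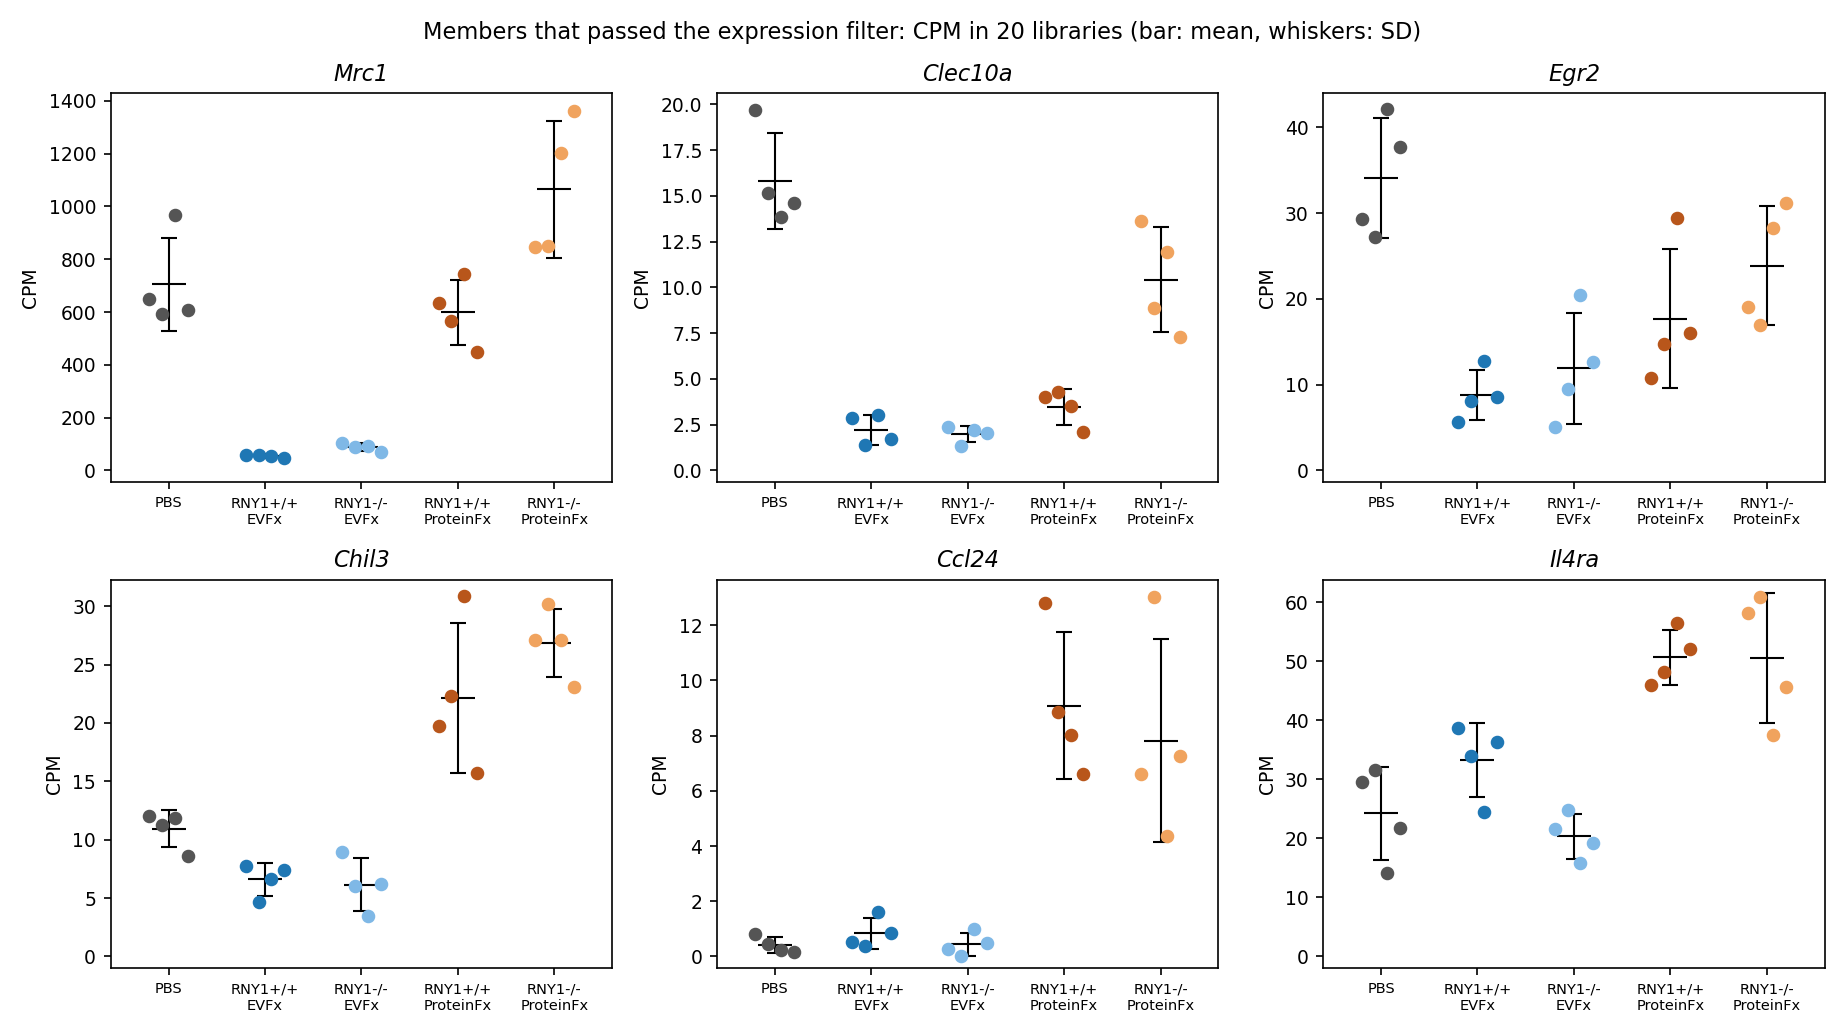
CPM of the 6 measurable genes in each of the 20 libraries by treatment group, with 1 point per library, the group mean as a bar and the SD as whiskers (n = 4). Mrc1 lay between 45.4 and 106 CPM in the 8 EVFx libraries and between 450 and 1362 CPM in the other 12, whereas Ccl24 was at or under 1.60 CPM outside the ProteinFx groups.

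Library totals ran from 2510005 to 8277366 counts, the lowest being RNY1-/- ProteinFx replicate 3. All 8 macrophage markers checked (among them Adgre1, Csf1r and Cd68) were above 3 counts in each group, and their summed level was 8567 to 13490 CPM over the 20 libraries. Some markers of other cells were at 0 in every library (Epx, Sftpc, Il5, Il13), but others on the same lists were not: group means were 0.918 to 15.9 CPM for Ccr3, 4.72 to 9.32 CPM for the epithelial keratin Krt18 and 0.987 to 5.18 CPM for Cd4. PBS replicate 3 stood farthest from its group, with a correlation of log2 CPM of 0.940 with PBS replicates 1 and 2, and RNY1-/- ProteinFx replicates 3 and 4 stood apart from replicates 1 and 2. The 8 neutrophil markers summed to 11.2 to 26.2 CPM with PBS and 10.8 and 10.2 CPM in RNY1-/- ProteinFx replicates 1 and 2, against 3.59 to 7.24 CPM in the other 14 libraries. Rny1, the gene deleted in RNY1-/- donors, had a summed count of 0 with PBS, 9 with RNY1+/+ EVFx and 1 in each of the other groups, so it does not check the labels.

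Mrc1 (ENSMUSG00000026712), which encodes the mannose receptor CD206, was low in every EVFx library and high elsewhere. With PBS it measured 649, 592, 968 and 609 CPM in replicates 1 to 4. RNY1+/+ EVFx libraries held 60.4, 57.4, 53.9 and 45.4 CPM, and RNY1-/- EVFx libraries held 106, 88.5, 92.9 and 69.8 CPM. Every EVFx library was thus far below every PBS library. The fall was 11.5-fold with RNY1+/+ EVFx (log2 fold change -3.52, SE 0.18, adjusted p = 8.8e-08) and 6.69-fold with RNY1-/- EVFx (log2 fold change -2.74, SE 0.18, adjusted p = 4.1e-07). As these are bulk libraries, fewer cells that express a gene and less RNA per cell cannot be told apart.

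ProteinFx gave no called change of Mrc1 against PBS. RNY1+/+ ProteinFx libraries measured 633, 565, 746 and 450 CPM and overlapped PBS (log2 fold change -0.07, SE 0.18, adjusted p = 0.77). That log2 fold change ran from -0.47 to 0.12 over all alternatives. RNY1-/- ProteinFx libraries measured 847, 850, 1202 and 1362 CPM. Replicates 3 and 4 of that group were above every other library of the study, and replicates 1 and 2 were below PBS replicate 3. Against PBS the log2 fold change was 0.68 (SE 0.22, adjusted p = 0.034), under the fold limit. Compared with EVFx of the same donor genotype, ProteinFx gave 11-fold more Mrc1 for RNY1+/+ (log2 3.46, adjusted p = 9.0e-11) and 10.7-fold more for RNY1-/- (log2 3.42, adjusted p = 1.3e-07).

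Donor genotype shifted Mrc1 by less than the fold limit in both fractions, with RNY1-/- above RNY1+/+ and no overlap of libraries in either. In EVFx the group means were 89.2 ± 14.9 against 54.3 ± 6.47 CPM (SD, n = 4), a log2 fold change of 0.79 (SE 0.11, adjusted p = 0.00029). In ProteinFx they were 1065 ± 259 against 598 ± 124 CPM, a log2 fold change of 0.76 (SE 0.19, adjusted p = 0.034). With replicates 3 and 4 as the only RNY1-/- ProteinFx libraries, the latter value was 1.07 (adjusted p = 0.0011) and passed the limit. Leaving out each of the 8 libraries in turn gave 0.60 to 0.88, with adjusted p up to 0.14 in the same edgeR test. The lowest value over all alternatives was 0.37. The 2 genotype effects differed by -0.03 (SE 0.25, adjusted p = 0.94), a difference whose error allows values of either sign. In EVFx, fold changes between donor genotypes ran with GC content (Spearman rho -0.654 over 10019 genes, no replicates of one another), and once GC and length trends were removed the Mrc1 value was 0.48 (adjusted p = 0.0045).

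Clec10a (ENSMUSG00000000318) encodes the galactose-type lectin receptor CD301a, and it gave the only call between donor genotypes. PBS libraries held 19.7, 15.1, 13.8 and 14.6 CPM. EVFx libraries held 2.84, 1.38, 3.00 and 1.69 CPM for RNY1+/+ donors and 2.36, 1.34, 2.22 and 2.02 CPM for RNY1-/- donors. No EVFx library reached the lowest PBS library. Clec10a fell 6.4-fold with RNY1+/+ EVFx (log2 fold change -2.68, SE 0.25, adjusted p = 6.5e-06) and 6.71-fold with RNY1-/- EVFx (log2 fold change -2.75, SE 0.22, adjusted p = 2.1e-06).

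In ProteinFx the donor genotypes separated. RNY1+/+ ProteinFx libraries had 4.02, 4.31, 3.52 and 2.08 CPM of Clec10a, from 12 to 21 counts each, and RNY1-/- ProteinFx libraries had 13.6, 8.88, 12 and 7.26 CPM, from 28 to 72 counts. The lowest RNY1-/- library was above the highest RNY1+/+ library. RNY1-/- ProteinFx was 2.83-fold higher (log2 fold change 1.5, SE 0.26, adjusted p = 0.0051), and leaving out each of the 8 libraries in turn gave 1.31 to 1.62 with adjusted p up to 0.025. Against PBS, Clec10a fell 4.08-fold with RNY1+/+ ProteinFx (log2 -2.03, adjusted p = 2.6e-05), while with RNY1-/- ProteinFx the log2 fold change was -0.54 (SE 0.22, adjusted p = 0.071). RNY1-/- ProteinFx exceeded RNY1-/- EVFx by 4.59-fold (log2 2.20, adjusted p = 4.5e-05). Clec10a was under the expression filter in the 2 comparisons that hold neither PBS nor RNY1-/- ProteinFx libraries, so those were not tested.

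The genotype effect on Clec10a differed between the fractions, by 1.56 on the log2 scale (SE 0.42, adjusted p = 0.012) in the interaction over 16 libraries. The neutrophil marker sum given above was also higher in RNY1-/- ProteinFx replicates 1 and 2. With replicates 3 and 4 only, where that sum was 3.59 and 4.41 CPM, RNY1-/- against RNY1+/+ ProteinFx gave 1.40 (adjusted p = 0.017) and the interaction gave 1.48 (adjusted p = 0.074), so the call between genotypes stood and the call on the interaction did not. With counts thinned to the smallest library the interaction was 2.54 (adjusted p = 0.016), and with GC and length trends removed it was 1.43 (adjusted p = 0.0239). The 7 dendritic cell markers summed to 0.41 to 3.09 CPM over all libraries, near the floor, and the part of such cells or of neutrophils in Clec10a was not tested.

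Mgl2 (ENSMUSG00000040950), the neighbouring gene on chromosome 11 that encodes the second mouse galactose-type lectin CD301b, was too low to measure. Counts in replicates 1 to 4 were 5, 7, 2 and 2 with PBS, 3, 2.83, 3 and 5.33 with RNY1+/+ EVFx, and 0.5, 1, 0 and 2 with RNY1-/- EVFx. They were 2.5, 0, 2.5 and 1 with RNY1+/+ ProteinFx and 7, 9, 1 and 1 with RNY1-/- ProteinFx. Only 5 of the 20 libraries were above 3 counts, the level taken here as the floor, and no group was above it in all its libraries. RNY1-/- EVFx libraries were all below PBS and below RNY1+/+ EVFx libraries, each with the smallest unadjusted exact permutation p of 0.0286. Without the expression filter, edgeR's adjusted p for Mgl2 was 0.033 for RNY1-/- EVFx against PBS, 0.13 against RNY1+/+ EVFx, 0.014 for RNY1-/- ProteinFx against RNY1-/- EVFx and 0.016 for the interaction. The fractional counts mark reads shared with another place in the genome, which for Mgl2 leaves the split from near-identical copies uncertain. Replicates 1 and 2 were also the higher ones within PBS and within RNY1-/- ProteinFx for the neutrophil markers, and the part of those cells in Mgl2 was not tested.

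Cd163 (ENSMUSG00000008845), the haemoglobin-haptoglobin scavenger receptor, was found above the floor only with PBS, where all 4 libraries passed it. Its counts there were 8, 10, 5 and 5. The 16 treated libraries held 0 to 2 counts each, with 1 count in each RNY1+/+ ProteinFx library. Against the floor of 3 counts per library, Cd163 was at least 3.02-fold lower with RNY1+/+ EVFx, 2.5-fold lower with RNY1-/- EVFx, 2.00-fold lower with RNY1+/+ ProteinFx and 1.76-fold lower with RNY1-/- ProteinFx. Each of the 4 comparisons had no overlap of libraries and reached the smallest unadjusted p that an exact two-sided permutation test allows with 4 libraries against 4, 0.0286. They share the same 4 PBS libraries. Without the expression filter, edgeR's adjusted p for Cd163 was 2.5e-05, 1.2e-05, 0.0039 and 0.00059 in the same order.

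Egr2 (ENSMUSG00000037868) encodes a zinc-finger transcription factor that acts downstream of STAT6 in alternative activation. PBS libraries held 29.3, 27.2, 42.1 and 37.7 CPM. RNY1+/+ EVFx libraries held 5.69, 8.13, 12.8 and 8.58 CPM, and RNY1-/- EVFx libraries held 5.12, 9.53, 20.4 and 12.6 CPM. The EVFx libraries were all below PBS, with RNY1-/- EVFx replicate 3 the nearest to them. Egr2 fell 3.48-fold with RNY1+/+ EVFx (log2 -1.80, SE 0.23, adjusted p = 8.8e-05) and 2.51-fold with RNY1-/- EVFx (log2 -1.33, SE 0.32, adjusted p = 0.0046).

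ProteinFx groups lay between PBS and EVFx for Egr2. RNY1+/+ ProteinFx libraries held 10.7, 14.7, 29.4 and 16 CPM and RNY1-/- ProteinFx libraries 19.1, 16.9, 28.3 and 31.1 CPM, so each overlapped PBS. Their log2 fold changes against PBS were -0.79 (SE 0.27, adjusted p = 0.026) and -0.46 (SE 0.24, adjusted p = 0.15), neither past the limits. RNY1+/+ ProteinFx replicate 3 was the high library, and without it the first value was -1.12 (adjusted p = 0.0019). Against EVFx of the same genotype the values were 1.02 (SE 0.27, adjusted p = 0.0046) for RNY1+/+, barely past the limit, and 0.86 (SE 0.35, adjusted p = 0.089) for RNY1-/-. The first fell under the limit without RNY1+/+ ProteinFx replicate 3 (0.70), RNY1+/+ EVFx replicate 1 (0.85) or RNY1+/+ EVFx replicate 2 (0.98), and the second passed it without RNY1-/- EVFx replicate 3 (1.21, adjusted p = 0.016).

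**Figure D2:**
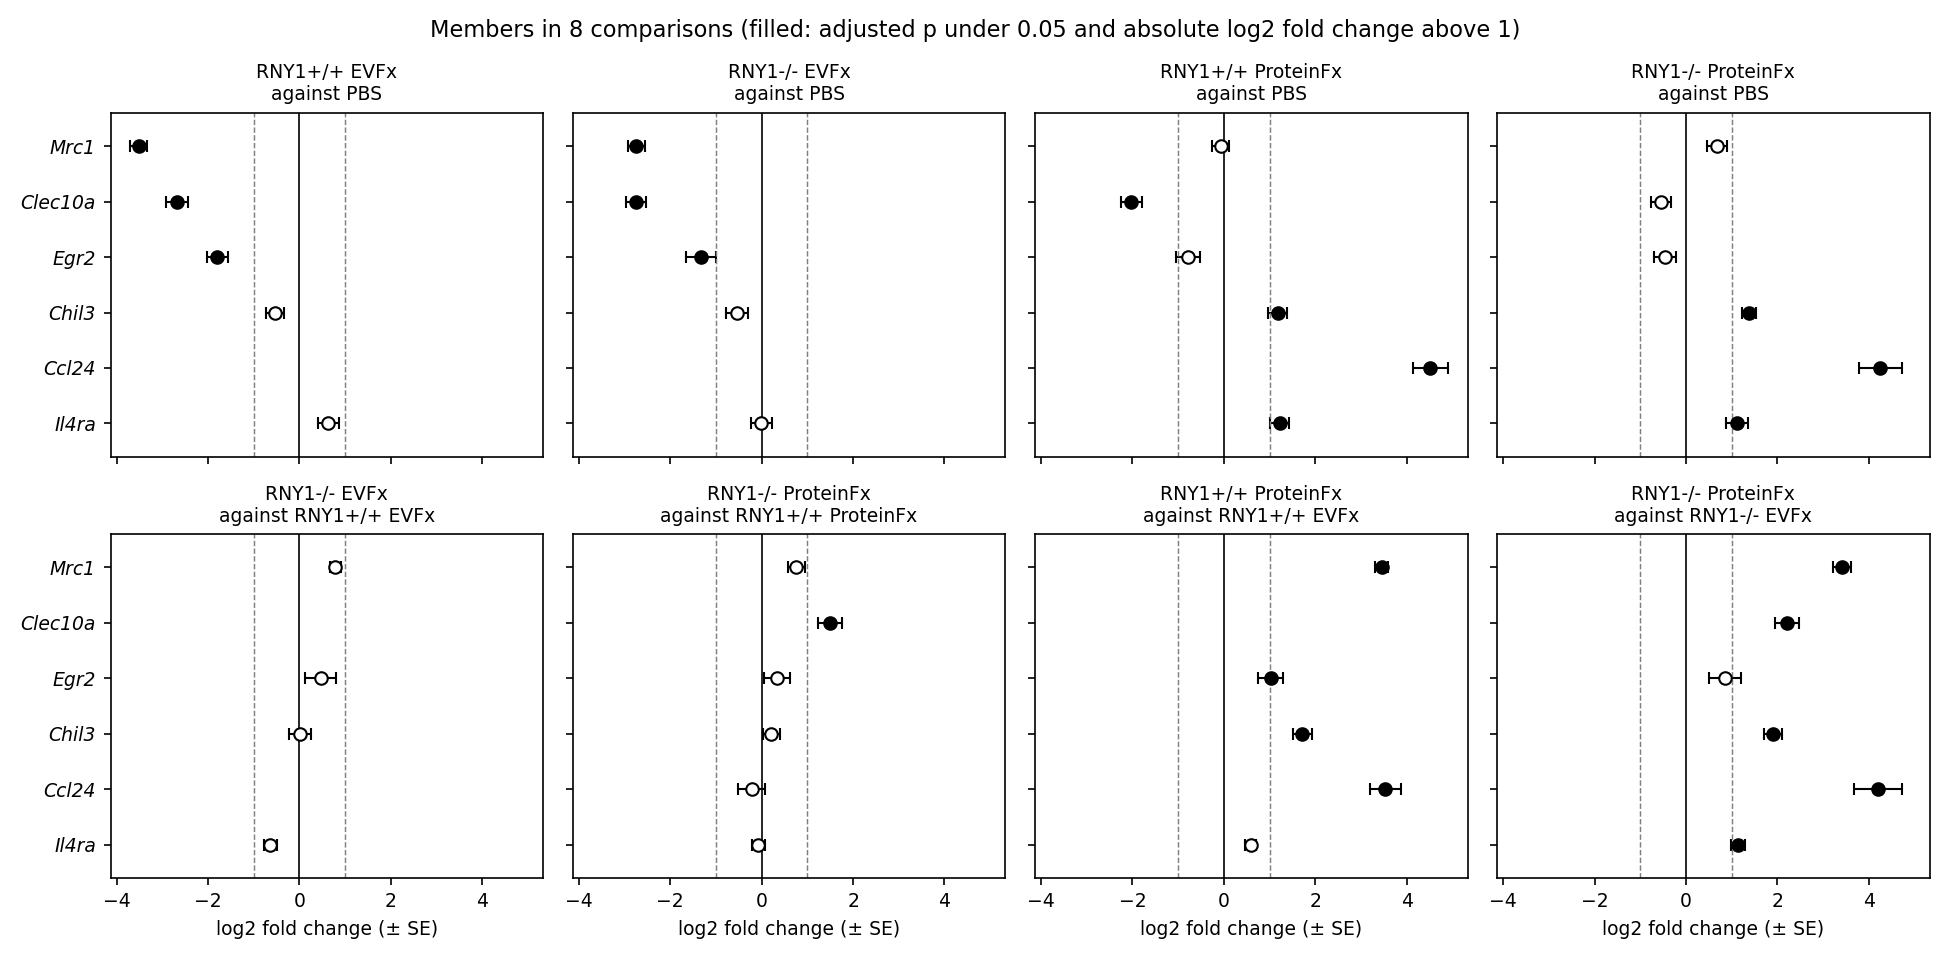
Log2 fold change (horizontal axis, bars are SE) of the 6 measurable genes in the 8 comparisons of groups, with filled points for genes past both limits and no point where a gene was under the expression filter. The filled points lie on the left for EVFx against PBS and on the right for Chil3, Ccl24 and Il4ra in ProteinFx against PBS, and Clec10a at 1.5 is the only filled point between donor genotypes.

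Chil3 (ENSMUSG00000040809) encodes the secreted chitinase-like protein Ym1. Its level with PBS was 12, 11.2, 11.9 and 8.60 CPM. RNY1+/+ ProteinFx libraries measured 19.7, 22.3, 30.9 and 15.7 CPM, and RNY1-/- ProteinFx libraries 27.1, 30.2, 27.1 and 23.1 CPM. All 8 ProteinFx libraries were above all 4 PBS libraries. Chil3 rose 2.27-fold with RNY1+/+ ProteinFx (log2 1.18, SE 0.21, adjusted p = 0.00063) and 2.59-fold with RNY1-/- ProteinFx (log2 1.37, SE 0.15, adjusted p = 8.8e-05). The first rise went just under the fold limit without RNY1+/+ ProteinFx replicate 3 (0.99) and after removal of GC and length trends (0.94).

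With EVFx, Chil3 measured 7.76, 4.63, 6.61 and 7.43 CPM for RNY1+/+ donors and 8.93, 6.03, 3.45 and 6.23 CPM for RNY1-/- donors. The RNY1+/+ EVFx libraries were all below PBS, and the highest RNY1-/- EVFx library was just above the lowest PBS library. Log2 fold changes were -0.54 (SE 0.19, adjusted p = 0.045) and -0.54 (SE 0.25, adjusted p = 0.079), neither a call. Against EVFx, ProteinFx held 3.28-fold more Chil3 for RNY1+/+ (log2 1.71, adjusted p = 5.2e-06) and 3.73-fold more for RNY1-/- (log2 1.90, adjusted p = 1.9e-05). Between donor genotypes the log2 fold changes were 0.02 (SE 0.24) in EVFx and 0.21 (SE 0.18) in ProteinFx, and their adjusted p were 0.96 and 0.58. Counts of Chil3 were fractional in 7 of 20 libraries, since it has close relatives in the genome, so reads may be split between copies.

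Retnla (ENSMUSG00000061100), the resistin-like protein also called Fizz1 or RELM-alpha and among the most IL-4-dependent of the set, was all but absent. It had 0 counts in the PBS, RNY1+/+ EVFx and RNY1+/+ ProteinFx libraries and a single count in 1 RNY1-/- EVFx library. RNY1-/- ProteinFx libraries held 3, 6, 2 and 2 counts, or 0.567, 0.839, 0.797 and 0.519 CPM, which was more than any other library but in only 1 library above the floor. The group mean of 0.680 CPM was under the group's own mean floor of 0.740 CPM, so no fold is given. Against PBS, RNY1+/+ ProteinFx and RNY1-/- EVFx the unadjusted exact two-sided permutation p was 0.0286, the smallest these group sizes give. Without the expression filter, edgeR's adjusted p was 0.00097 against PBS, 0.0083 against RNY1+/+ ProteinFx and 0.012 against RNY1-/- EVFx, on 13 counts in all.

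Ccl24 (ENSMUSG00000004814), or eotaxin-2, is a chemokine that attracts eosinophils through the receptor Ccr3, and it was found almost wholly in the ProteinFx libraries. Its counts were 4, 3, 1 and 1 with PBS, 4, 3, 8 and 7 with RNY1+/+ EVFx, and 2, 0, 4 and 3 with RNY1-/- EVFx, at or near the floor. RNY1+/+ ProteinFx gave 67, 35, 32 and 38 counts (12.8, 8.87, 8.04 and 6.59 CPM). RNY1-/- ProteinFx gave 35, 93, 11 and 28 counts (6.61, 13, 4.38 and 7.26 CPM). The lowest ProteinFx library was above the highest of the 12 other libraries, which had 1.60 CPM.

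The rise of Ccl24 against PBS was 22.9-fold with RNY1+/+ ProteinFx (log2 4.52, SE 0.39, adjusted p = 2.7e-06) and 19.1-fold with RNY1-/- ProteinFx (log2 4.25, SE 0.47, adjusted p = 8.4e-05). With only 9 counts over the 4 PBS libraries, the size of these folds is loosely fixed. Against EVFx the rises were 11.6-fold for RNY1+/+ (log2 3.54, SE 0.33, adjusted p = 5.3e-07) and 18.5-fold for RNY1-/- (log2 4.21, SE 0.52, adjusted p = 6.7e-05). Donor genotype made a log2 difference of -0.22 (SE 0.29, adjusted p = 0.75) in ProteinFx, where the libraries overlapped. EVFx against PBS could not be tested, as Ccl24 was under the expression filter there. Ccr3 moved with Ccl24 in part, at 15.9 ± 2.24 and 12.9 ± 3.19 CPM in the RNY1+/+ and RNY1-/- ProteinFx groups, 8.47 ± 3.26 CPM with PBS, and 0.918 ± 0.167 and 1.5 ± 0.676 CPM in the matching EVFx groups (SD, n = 4). Siglecf, also on the eosinophil list and on that of alveolar macrophages, averaged 0.320 CPM with PBS, 0.218 and 0.108 CPM in the RNY1+/+ and RNY1-/- EVFx groups, and 0.938 and 1.47 CPM in the matching ProteinFx groups. Prg2 and Ear1, near 0 throughout, went the other way, from 0.276 and 0.237 CPM with PBS. They averaged 0.0628 and 0.0628 CPM with RNY1+/+ ProteinFx, and 0.0822 and 0.190 CPM with RNY1-/- ProteinFx. Ear6 was at 0 with PBS and at 0.0634 and 0.0350 CPM in these ProteinFx groups. The 6 eosinophil markers summed to 7.65 to 13.6 CPM with PBS, 0.801 to 2.46 CPM with EVFx and 12.7 to 21.4 CPM with ProteinFx. Most of these sums was Ccr3, Epx was at 0, and the part of these markers in the Ccl24 result was not tested.

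Ccl17 (ENSMUSG00000031780), the chemokine TARC that attracts T helper 2 cells through Ccr4, was not above the floor in any of the 20 libraries. Its counts were 0 in all PBS libraries, 0, 1, 1 and 0 with RNY1+/+ EVFx, and 0, 0, 1 and 1 with RNY1-/- EVFx. They were 3, 0, 0 and 1 with RNY1+/+ ProteinFx and 1, 2, 0 and 0 with RNY1-/- ProteinFx. The deepest library had 8277366 counts, so a level up to 0.362 CPM there was not detectable at this depth. Over the 4 low genes, 29 comparisons of CPM had a nonzero count, and 9 of them reached the unadjusted exact permutation p of 0.0286. The same share over all genes was not computed, so this count is not read as a result about these genes. It includes the Cd163 comparisons with PBS, which share their PBS libraries.

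**Figure D3:**
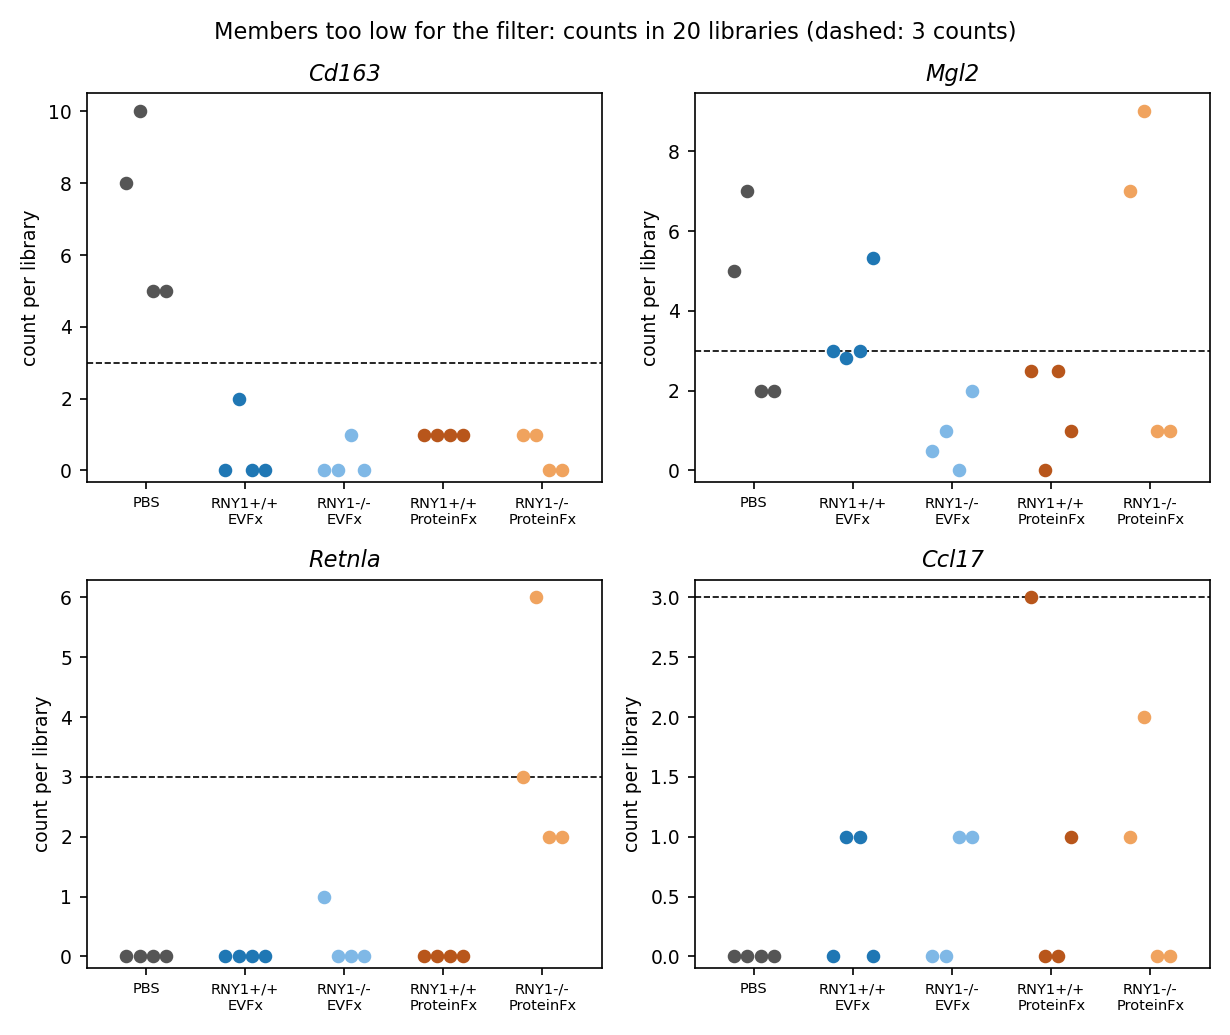
Counts per library of the 4 genes too low for the expression filter, with 1 point per library and a dashed line at the floor of 3 counts. Cd163 is above the line only in the 4 PBS libraries, Retnla is above 1 count only with RNY1-/- ProteinFx, and Ccl17 is never above the line.

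Retnla and Ccl17, both near 0 here, are the 2 of the 8 members with a RefSeq promoter entry whose windows hold the palindrome TTCNNNNGAA, the spacing that STAT6 prefers. The search covered 250 bases before to 50 after the start in GRCm38.p6, and 6.95% of all 32851 promoters hold a match on either strand, which for a palindrome is the same match. The shorter TTCNNNGAA spacing, shared by other STAT factors and held by 8.3% of promoters, was found in Chil3 and Ccl17. The C/EBP-type motif TTGCNNAA, searched on both strands and held by 10.8% of promoters, was found in Retnla. The windows of Mrc1, Mgl2, Egr2, Il4ra and Cd163 held none of these, and this says only that these letters are not in those windows. The stretches are shown to set the low genes beside Chil3, which rose with ProteinFx. They run 5′ to 3′ on the gene's strand, 30 bases each, with the match in capitals, at chr16:48842454-48842483 (plus strand), chr8:94810289-94810318 (plus), chr8:94810344-94810373 (plus) and chr3:106167717-106167746 (minus). A match is a description of the sequence and not a binding site.
Retnla, TTCNNNNGAA: agaatcataaTTCACAAGAAattgctaaac
Ccl17, TTCNNNNGAA: cgagtgaccaTTCTCTGGAAagccacaaac
Ccl17, TTCNNNGAA: ttatctcaaaTTCTTTGAAtttctctagtc
Chil3, TTCNNNGAA: aaatacccacTTCTTAGAAacatagctatc

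Il4ra (ENSMUSG00000030748) encodes the receptor chain that binds IL-4 and is shared with the IL-13 receptor. PBS libraries held 29.5, 31.5, 14.2 and 21.7 CPM. RNY1+/+ ProteinFx libraries held 45.9, 48.2, 56.5 and 52.1 CPM, and RNY1-/- ProteinFx libraries 58.2, 60.8, 37.5 and 45.6 CPM. The ProteinFx libraries were all above PBS. Il4ra rose 2.33-fold with RNY1+/+ ProteinFx (log2 1.22, SE 0.21, adjusted p = 0.00051) and 2.18-fold with RNY1-/- ProteinFx (log2 1.12, SE 0.24, adjusted p = 0.0056). The second rise went just under the fold limit without PBS replicate 3, the lowest library (0.94, adjusted p = 0.0014), and with RNY1-/- ProteinFx replicates 3 and 4 only (0.91, adjusted p = 0.038).

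In EVFx, Il4ra measured 38.6, 33.9, 24.4 and 36.2 CPM for RNY1+/+ donors and 21.5, 24.9, 15.8 and 19.2 CPM for RNY1-/- donors. The RNY1+/+ EVFx libraries overlapped PBS (log2 fold change 0.63, SE 0.23, adjusted p = 0.041), as did the RNY1-/- EVFx libraries (-0.01, SE 0.23, adjusted p = 0.97). Between donor genotypes the log2 fold change in EVFx was -0.64 (SE 0.15, adjusted p = 0.0035), under the fold limit, and it was -0.31 (adjusted p = 0.064) once the GC and length trends were removed. Il4ra is a GC-rich transcript, at the 85.1 percentile of GC content, and its part in that trend was not tested. In ProteinFx the genotype value was -0.08 (SE 0.14, adjusted p = 0.83), and the difference between the fractions was 0.56 (SE 0.21, adjusted p = 0.048), or 0.21 (adjusted p = 0.36) with those trends removed. ProteinFx exceeded EVFx by 2.20-fold for RNY1-/- (log2 1.14, adjusted p = 0.00016; 0.91 with ProteinFx replicates 3 and 4 only, under the limit), and for RNY1+/+ the log2 value was 0.59 (SE 0.12, adjusted p = 0.00075), under the limit.

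Counted by comparison, 3 of the 5 members tested were called in RNY1+/+ EVFx against PBS, all lower, where 16.4% of all genes tested were called. In RNY1-/- EVFx against PBS it was again 3 of 5, all lower, with 22.5% of all genes called. RNY1+/+ ProteinFx against PBS gave 4 of 6, namely 3 higher and Clec10a lower, against 21.3% of all genes. RNY1-/- ProteinFx against PBS gave 3 of 6, all higher, against 14.3%. The 4 comparisons share their PBS libraries. Between donor genotypes the counts were 0 of 4 in EVFx, with 2.35% of all genes called, and 1 of 6 in ProteinFx, with 1.82% called. In EVFx, Mrc1 and Il4ra had an adjusted and an unadjusted p under 0.05, as 5379 of the 10321 genes tested had an adjusted one, and were not called because of the fold limit. ProteinFx against EVFx gave 4 of 5 for RNY1+/+ and 5 of 6 for RNY1-/-, all higher, where 13.5% and 8.97% of all genes were called. The interaction gave 1 of 6, Clec10a, with 7.79% of all genes called. Members had been kept by a mean of at least 3 CPM, so these shares do not cover all 10. Ccl24 passed that filter only through the ProteinFx groups, so in ProteinFx against PBS or EVFx it could enter these counts only as higher. The same held for Clec10a in RNY1-/- ProteinFx against RNY1-/- EVFx. Between donor genotypes in ProteinFx, where both groups held Ccl24, it could be called in either direction. In EVFx against PBS, Clec10a passed only through PBS (15.8 CPM, against 2.23 and 1.99 CPM with RNY1+/+ and RNY1-/- EVFx). It could enter there only as lower. In the interaction it passed only through RNY1-/- ProteinFx (10.4 CPM) and could enter only with a positive value.

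The order of groups differed by gene. For Mrc1 it was RNY1-/- ProteinFx, PBS, RNY1+/+ ProteinFx, RNY1-/- EVFx and RNY1+/+ EVFx from high to low, and only the first 2 steps were between groups whose libraries overlapped. Clec10a went from PBS at 15.8 ± 2.63 CPM through RNY1-/- ProteinFx at 10.4 ± 2.88 and RNY1+/+ ProteinFx at 3.48 ± 0.989 to the EVFx groups at 2.23 ± 0.815 (RNY1+/+) and 1.99 ± 0.452 CPM (RNY1-/-), the last 3 overlapping. Egr2 ran from 34.1 ± 7.02 CPM with PBS to 8.80 ± 2.96 CPM with RNY1+/+ EVFx, and each neighbouring pair in its order overlapped. Chil3, from 26.9 ± 2.92 CPM with RNY1-/- ProteinFx to 6.16 ± 2.24 CPM with RNY1-/- EVFx, showed its clearest step between RNY1+/+ ProteinFx at 22.2 ± 6.44 CPM and PBS at 10.9 ± 1.59 CPM. Il4ra was alike in the ProteinFx groups, 50.7 ± 4.66 and 50.5 ± 11 CPM, then 33.3 ± 6.23 CPM with RNY1+/+ EVFx, 24.2 ± 7.92 CPM with PBS and 20.3 ± 3.84 CPM with RNY1-/- EVFx.

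Genes whose profile over the 20 libraries was most like a member's were sought among 7553 genes with a mean of at least 10 CPM, by Pearson correlation of log2 CPM. These are descriptions over libraries that share groups and depth. For Mrc1 they were Itga6 (r = 0.992), Igf1 (0.987) and Gcnt1 (0.986). Itga6, an integrin chain, averaged 202 ± 29.7 CPM with PBS, 24.8 ± 4.36 with RNY1+/+ EVFx and 170 ± 15.5 with RNY1+/+ ProteinFx. For Clec10a they were Gask1b (0.951), S100a10 (0.950) and Sulf2 (0.942), and Gask1b showed the same gap between ProteinFx groups, 116 ± 6.20 CPM for RNY1-/- against 48.7 ± 12.3 for RNY1+/+. Ccl24 was most like Pdia4 (0.960), the IL-36 receptor chain Il1rl2 (0.938) and the chemokine Ccl9 (0.929). Il4ra was most like the transglutaminase Tgm2 (0.957), AB124611 (0.935) and Max (0.924), Egr2 like the elastase Mmp12 (0.938), Dock1 (0.905) and Fh1 (0.898), and Chil3 like Nudt9 (0.934), Tmem50a (0.931) and Cd300lf (0.917).

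Genes of IL-4 and IL-13 receptor signalling, which include inhibitors such as Socs1, Socs2, Socs3, Cish and Ptpn6, were called in both directions. A rise of this list is thus not a rise of the signal. Of 15 listed, 10 to 12 were tested against PBS, and 5, 3, 5 and 4 rose while 1, 2, 1 and 1 fell in the order RNY1+/+ EVFx, RNY1-/- EVFx, RNY1+/+ ProteinFx and RNY1-/- ProteinFx, where 16.4%, 22.5%, 21.3% and 14.3% of all genes were called. The kinase Jak1, the receptor chain Il2rg and the phosphatase Ptpn11 were called in none of the 4. Socs1, Socs2, Socs3 and Cish averaged under 3 CPM with PBS and, where tested, passed the filter through the treated group. The list's median log2 fold changes were 0.89, 0.45, 0.48 and 0.43, beside -0.03 over all genes tested in each. Il13ra1, which pairs with Il4ra in the IL-13 receptor, rose in all 4, from 12.1 ± 2.33 CPM with PBS to 40.5 ± 2.95 CPM with RNY1-/- ProteinFx (log2 1.81, adjusted p = 1.1e-05). The kinase Jak2 rose from 20.4 ± 2.93 CPM to 83.3 to 114 CPM across the 4 treatments. Stat6 went the other way, from 37.1 ± 17.3 CPM to 10.7 ± 2.71 CPM with RNY1-/- EVFx (log2 -1.58, adjusted p = 0.0019) and 11.3 ± 1.99 CPM with RNY1+/+ ProteinFx (log2 -1.55, adjusted p = 0.0019). It was not called with RNY1+/+ EVFx (log2 -0.60, adjusted p = 0.15) or RNY1-/- ProteinFx (log2 -1.15, adjusted p = 0.061), and PBS libraries ranged from 15.8 to 56.1 CPM. The feedback inhibitor Socs3, which many cytokines induce, rose most, by 6.11 on the log2 scale with RNY1+/+ ProteinFx (adjusted p = 9.9e-08). It was also the only listed signalling gene called between donor genotypes, lower with RNY1-/- in both EVFx (log2 -1.07, adjusted p = 0.00020) and ProteinFx (log2 -1.55, adjusted p = 0.0017). Over all genes tested, 2.35% and 1.82% were called in these 2 comparisons.

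**Figure D4:**
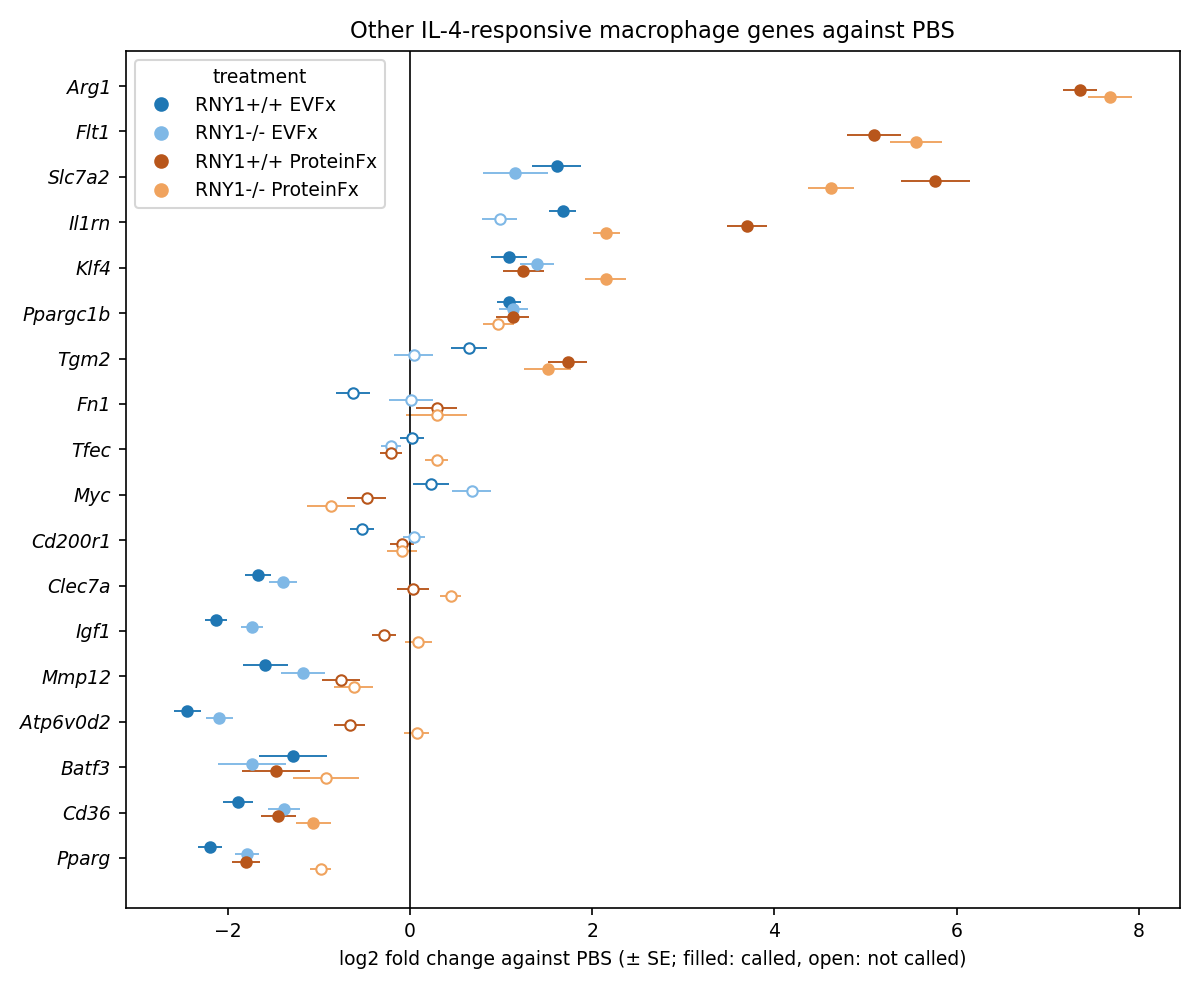
Log2 fold change against PBS (horizontal axis, bars are SE) of the other IL-4-responsive macrophage genes that were tested, with 1 colour per treatment, filled points for calls and open points for the rest. Arg1, Flt1 and Slc7a2 lie far to the right with ProteinFx, with Arg1 above 7, and Pparg, Cd36, Atp6v0d2 and Igf1 lie to the left with EVFx.

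A list of 30 other genes that IL-4 is known to induce in macrophages was split by treatment. Against PBS, 4 rose and 7 fell of 16 tested with RNY1+/+ EVFx, and 3 rose and 7 fell of 16 with RNY1-/- EVFx, where 16.4% and 22.5% of all genes were called. With ProteinFx, 7 rose and 3 fell of 18 for RNY1+/+, and 6 rose and 1 fell of 18 for RNY1-/-, where 21.3% and 14.3% of all genes were called. Arg1 and Flt1, tested only there, passed the filter through the ProteinFx groups where they were high and could only add to those that rose. Slc7a2, at 2.98 CPM with PBS, likewise passed it only through the treated groups. Batf3, at 4.88 CPM with PBS and 1.20 to 2.35 CPM with treatment, passed it only through PBS. It could only add to those that fell. The counts and medians of the fractions are therefore not comparable. The medians were -0.57, -0.10, -0.03 and 0.30 in the same order, beside -0.03 over all genes tested in each. Arg1, an arginase on this list, went from 0.908 ± 0.345 CPM with PBS to 188 ± 40.2 CPM with RNY1-/- ProteinFx (log2 7.68, adjusted p = 1.7e-08) and was listed at 0.286 ± 0.287 CPM with RNY1+/+ EVFx. The arginine transporter Slc7a2 and the VEGF receptor Flt1 rose with it, by 5.77 (adjusted p = 2.8e-07) and 5.09 (adjusted p = 1.1e-07) with RNY1+/+ ProteinFx. Pparg, a nuclear receptor of lipid handling, fell with RNY1+/+ EVFx (log2 -2.19, adjusted p = 2.2e-07) and with RNY1+/+ ProteinFx (log2 -1.80, adjusted p = 2.3e-06), and so did its target Cd36 (-1.88 and -1.45, adjusted p = 5.1e-06 and 8.5e-05). ProteinFx against EVFx gave 9 higher and 0 lower of 18 for RNY1+/+ donors, and 9 higher and 1 lower of 18 for RNY1-/- donors, with Arg1, Flt1 and Pdcd1lg2, which passed the filter through ProteinFx, among the higher, where 13.5% and 8.97% of all genes were called. Between donor genotypes 0 of 15 were called in EVFx and 2 of 18 in ProteinFx, where 2.35% and 1.82% of all genes were called. In ProteinFx Il1rn, the IL-1 receptor antagonist, was lower with RNY1-/- (log2 -1.53, adjusted p = 0.00035), as was Slc7a2 (log2 -1.14, adjusted p = 0.029).

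The genes listed beside Cd163, which mark resident-type macrophages or answer to IL-10 or glucocorticoid, were tested for 13 of 15, with 14 found by name. Against PBS, 1 rose and 4 fell with EVFx of either genotype, 2 rose and 4 fell with RNY1+/+ ProteinFx, and 2 rose and 3 fell with RNY1-/- ProteinFx. Over all genes tested, 16.4%, 22.5%, 21.3% and 14.3% were called with RNY1+/+ EVFx, RNY1-/- EVFx, RNY1+/+ ProteinFx and RNY1-/- ProteinFx. The list's medians were -0.75, -0.33, -0.11 and -0.01 in that order, beside -0.03 over all genes tested in each. Like Cd163, the scavenger receptor Stab1 and the folate receptor Folr2 fell in all 4, Stab1 from 215 ± 54.2 CPM to 31.3 ± 5.53 CPM with RNY1-/- EVFx (log2 -2.53, adjusted p = 1.4e-06). Gas6, a ligand that bridges dying cells to macrophages, fell most with RNY1+/+ ProteinFx (log2 -3.76, adjusted p = 1.1e-06) and was higher with RNY1-/- than RNY1+/+ ProteinFx (log2 1.32, adjusted p = 0.016), as Clec10a was. The haem oxygenase Hmox1 set the fractions apart in the opposite sense to Mrc1, rising with RNY1+/+ EVFx to 8711 ± 805 CPM from 1162 ± 170 CPM with PBS (log2 3.08, adjusted p = 3.7e-08) and standing at 956 ± 152 CPM with RNY1+/+ ProteinFx.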

How the data were processed

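The authors deposited 1 table with, for each gene and each of the 20 libraries, expected counts without normalization and CPM, which they computed as the count over the library total. Per the labels' processing notes, reads were filtered with fastp 0.24.0, aligned to GRCm39 with STAR 2.7.11 and counted with featureCounts (Subread 2.1.1). The study's methods add that counting was strand-specific and that reads with several mapping places were shared out as fractions, so counts need not be whole. They were rounded before testing. Library totals were 2510005 to 8277366, and a gene at or under 3 counts in a library was taken as not measurable there. This floor covers counting error only. Duration of treatment is not given in the sources used here.

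Each comparison used the 8 libraries of 2 groups, and the interaction 16. The test was edgeR 4.0.16's quasi-likelihood fit (glmQLFit, glmQLFTest, R 4.3.3) after TMM scaling, on genes that passed filterByExpr with a mean CPM of 3 or more, with Benjamini-Hochberg adjustment over all genes tested. Members under the filter were compared with exact two-sided permutation tests (scipy 1.17.1). The code was tested on simulated counts. Text names every member, up to 4 called genes per direction from each list in each comparison, and the 3 genes most like each member. The members and lists were chosen with earlier results of these data known. Promoters are RefSeq's on GRCm38.p6, matched for 8 of 10 members; GC content and length came from a GENCODE annotation of GRCm38, found for 96.7% to 97.1% of genes tested. Alternatives were DESeq2 1.42.0, total counts, other filters, no fold limit, all 20 libraries in 1 fit, thinned counts, a replicate block, GC and length trends removed, and libraries left out. Same-numbered libraries deviated together in every pair, with correlations of 0.129 to 0.381 in RNY1-/- EVFx against PBS and 0.218 to 0.399 in RNY1-/- ProteinFx against RNY1-/- EVFx. These correlations are weak, and RNY1-/- EVFx replicates 1 and 4 were most like PBS replicates 4 and 3. No label ties the libraries, so whether the numbers pair those groups cannot be told.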

Additional observations from a re-analysis of the deposited data

Results flagged for a closer look

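In the PBS group, Mrc1 of replicate 3 stood apart at 968 CPM, with a gap to its nearest neighbour of 0.848 of the group's range, above Dixon's critical value for 4 libraries. It was the 1 such library found in 35 groups of a member, where chance gives about 1 in 20. The same library held the lowest Il4ra and, at 42.1 CPM, the highest Egr2 of the PBS group. Without it, Mrc1 in RNY1+/+ ProteinFx against PBS changed from -0.07 to 0.12 on the log2 scale, neither a call.

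The effect of donor genotype differed between ProteinFx and EVFx for Clec10a, by 1.56 on the log2 scale (edgeR's quasi-likelihood interaction, adjusted p = 0.012), with RNY1-/- above RNY1+/+ in 4 of 4 ProteinFx libraries and overlapping in EVFx. It also differed for Il4ra, by 0.56 (adjusted p = 0.048), where RNY1-/- averaged less than RNY1+/+ in EVFx (20.3 against 33.3 CPM) and libraries overlapped in both fractions. The first was not past the threshold with RNY1-/- ProteinFx replicates 3 and 4 only, nor was the second (0.34, adjusted p = 0.37), which also missed it with GC and length trends removed (0.21, adjusted p = 0.36), with all 20 libraries in 1 fit (0.56, adjusted p = 0.12) and without RNY1-/- ProteinFx replicate 2 (0.49, adjusted p = 0.11), among other left-out libraries.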

How the results depend on the processing

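Members called numbered 5 (main 3) in RNY1+/+ EVFx against PBS with no fold limit, and with no filter 5 in RNY1-/- EVFx against PBS (Cd163 and Mgl2 added) and 5 in RNY1-/- ProteinFx against PBS (Cd163 and Retnla added). With RNY1-/- ProteinFx replicates 3 and 4 only, 1 was called against PBS, where Ccl24 went under the filter and Il4ra under the fold limit, 2 against RNY1+/+ ProteinFx (Mrc1 added) and 0 in the interaction. Between genotypes, 2 were called in EVFx with no fold limit, 2 in ProteinFx with no filter (Retnla added) or no fold limit, and 2 in the interaction with no filter (Mgl2 added) or no fold limit. With no fold limit, 44.5% of all genes tested were called in RNY1+/+ EVFx against PBS. Between genotypes that share was 52.1% in EVFx, 5.57% in ProteinFx and 33% in the interaction. Shares under the other settings are not given here, so none of these counts is read as a result about the members. Leaving out 1 library gave 2 to 3 in RNY1-/- ProteinFx against PBS, 3 to 4 in RNY1+/+ and 4 to 6 in RNY1-/- ProteinFx against EVFx, and the main count elsewhere. The replicate block left each count within 1.5 times the main one, and it moved Egr2 in RNY1+/+ ProteinFx against EVFx from 1.02 to 0.97. Same-numbered libraries correlated from -0.367 to 0.641 in the comparisons other than RNY1-/- EVFx against PBS and RNY1-/- ProteinFx against RNY1-/- EVFx. The highest were in RNY1-/- ProteinFx against PBS, at 0.511, 0.623 and 0.641 for replicates 1 to 3, each most like its own number. Replicate 4 there had 0.018 and was most like PBS replicate 3. Whether the numbers pair these groups cannot be told either. Total counts in place of TMM moved the members' log2 fold changes by a median of -0.24 to 0.18.

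Sign changes were seen in small values that were not calls, and the cause was not tested. Il4ra in RNY1-/- EVFx against PBS (main -0.01) became 0.0064 by DESeq2, 0.0019 by filterByExpr only, 0.0021 with the replicate block, 0.40 with GC and length trends removed and 0.40 with both, and ran from -0.17 to 0.14 with 1 library left out. Chil3 between genotypes in EVFx (main 0.02) became -0.0506 by total counts, -0.016 with no filter, -0.14 without GC and length trends and -0.15 with the block too, with -0.23 to 0.16 over left-out libraries. Between genotypes in ProteinFx, Il4ra became 0.018 by total counts and 0.098 with RNY1-/- replicates 1 and 2 only (-0.16 to 0.019 over left-out libraries). Ccl24 became 0.0021 thinned and 0.011 with those replicates, Chil3 -0.048 thinned and Egr2 -0.089 with those replicates. In the interaction, Mrc1 became 0.11 by total counts, 0.044 with no filter, 0.019 thinned, 0.27 without GC and length trends, 0.31 with the block too and 0.29 with RNY1-/- ProteinFx replicates 3 and 4 only (-0.18 to 0.095 over left-out libraries). Egr2 became 0.011 by total counts and 0.29 with those 2 libraries (-0.43 to 0.19), and Chil3 -0.077 thinned. Mrc1 in RNY1+/+ ProteinFx against PBS ran from -0.18 to 0.12 over left-out libraries, and its lowest value over all alternatives was -0.47. Among the single members' values under alternatives, 44 changed sign, 903 kept sign and call, 14 newly passed the limits and 13 no longer did.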
